A study of Mus musculus with 24 samples.

Results

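Activated CD4 T cells labelled as knockouts (KO) of Acly were compared with activated wild-type (WT) cells across every gene that reached 1 RPM in 3 or more of the 6 libraries. RPM is the number of reads of a gene after scaling each library to 1000000 reads. The rule kept 22186 of 46981 genes in the table, and it used only the level of a gene, not its difference between genotypes. KO cells came from mice labelled CD4-Cre Acly fl/fl, in which Cre under the Cd4 promoter removes floxed Acly sequence in T cells. The controls are labelled WT, with no word on whether they carried Cre or floxed alleles, and no age or sex is given. Both groups of 3 libraries were stimulated through CD3 and CD28 for 24 h, in medium with 15% serum and 2 mM glutamine. The series also holds unstimulated cells of both genotypes and a second cohort with Pdha1 deleted. Single-end reads of 75 bp were made from total RNA depleted of ribosomal and globin RNA. The labels do not say whether each library came from its own animal, and the tests therefore judge differences by the spread among these libraries, part of which may be technical.

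ATP citrate lyase, the product of Acly, splits citrate that has left the mitochondria into acetyl-CoA and oxaloacetate. The acetyl-CoA feeds the synthesis of fatty acids, cholesterol and acetylated proteins, histones among them. A stimulated CD4 T cell leaves quiescence, builds membranes, ribosomes and nucleotides, raises glycolysis and enters the cell cycle.

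The 6 libraries held 806545 to 1087675 recovered counts, and 1 count was worth 0.755 to 1.07 RPM. A count of 0 allows up to 3 counts, or 2.26 to 3.21 RPM, for counting error only, and this is the floor used here. Genes of olfactory and vomeronasal receptors (1896 in the table, 861 tested) held 3.39%, 3.03% and 4.05% of RPM in WT and 3.16%, 3.22% and 4.12% in KO. Their sum is called receptor background below. The floor does not cover such background, and its part in the levels of low genes was not tested. All 7 CD4 T cell markers lay above that floor in every library, and their sum was 2912 to 3210 RPM in WT and 2392 to 2868 RPM in KO. Of the markers of CD8 T and NK cells (3 of 6 above the floor in all 6 libraries), the sum was 22.0 to 31.9 RPM in WT and 23.4 to 37.5 RPM in KO, with Cd8a at 0 in WT 3 and KO 3. The regulatory T cell markers Foxp3 and Ikzf2, both above the floor in all 6, summed to 35.0 to 44.3 RPM in WT and 40.7 to 69.1 RPM in KO. B cell markers (0 of 5) summed to 3.95 to 10.97 and 5.29 to 20.3 RPM, and myeloid markers (2 of 5) to 22.9 to 29.9 and 12.3 to 34.3 RPM. Erythroid and platelet markers (2 of 5) summed to 22.1 to 52.2 RPM in WT and 14.1 to 329 RPM in KO, where KO 3 stood apart through the globin gene Hba-a1 at 239 RPM. Xist, made from the silent X chromosome of female cells, stood higher in WT 3 (63.9 RPM), KO 2 (55.9 RPM) and KO 3 (132 RPM), against 3.99 to 9.48 RPM in the other 3 libraries. Ddx3y, from the Y chromosome, was at 1.76 to 5.28 RPM in those 3 and at 74.4 to 93.6 RPM in the others. By these 2 genes, female-type libraries were 1 of 3 in WT and 2 of 3 in KO. Eif2s3y, also Y-linked, went the same way, at 0, 2.64 and 1.07 RPM in WT 3, KO 2 and KO 3. It held 17.4 RPM or more in the others. Y-linked Kdm5d did not separate them, at 44.3, 20.3 and 25.7 RPM against 31.7 to 44.1 RPM. Uty was only slightly lower in WT 3 and KO 2 (13.2 and 11.5 RPM, and 3.21 RPM in KO 3, against 13.6 to 15.98 RPM). That a group held more than 1 animal thus rests on Xist, Ddx3y and Eif2s3y.

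Acly itself (ENSMUSG00000020917, GRCm38 chromosome 11, 100476353 to 100528000) checked the labels. WT libraries 1 to 3 held 104, 111 and 109 RPM and KO libraries 11.3, 10.6 and 15.0 RPM. Every KO library thus lay far below every WT library, by 8.77-fold between the means. The log2 difference was −3.10 ± 0.23 (standard error, as after every log2 value here; limma, adjusted p = 4.66e-12). Which part of the transcript the remaining reads came from is not given in the sources used here.

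Across all genes, 39 passed an adjusted p of 0.05 by limma (0.176% of those tested), of which 4 were higher (0.018%) and 35 lower (0.158%) in KO cells. Called genes fell by 0.62 to 3.10 on the log2 scale, and 17 of the 35 fell at least 2-fold. The 4 that rose were Klf2, Hmgcs1, Rgs2 and Cyp51. In all 39 the KO values lay wholly on one side of the WT values. Over all genes tested, groups were apart with KO higher in 949 (4.28%) and with KO lower in 2106 (9.49%), and 1801 genes had an unadjusted p under 0.05 (8.12%). Groups apart with KO lower were more frequent at higher levels. They were 213 of 5305 genes under a mean of 3 RPM, 615 of 3306 at 30 to 100 RPM and 282 of 1486 at 100 RPM or more. The 9.49% set beside lists below covers all levels and is low for lists of higher genes. The called genes comprised 36 protein-coding genes, 2 processed pseudogenes and 1 other transcript. None of the 11955 genes with a mean under 10 RPM was called in this fit, against 6 with the replicate number as a block and 4 by edgeR.

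The direction of the split depends on the scaling. As deposited, the median log2 difference of all genes was −0.09, with 41.2% of genes above 0 and 10.3% of calls higher. After TMM-style scaling, which assumes that most genes do not differ, that median was 0.01, and 27 genes were called (0.122%), 11 higher and 16 lower, so 40.7% of calls were higher. All 4 rises and 15 of the 35 falls kept their call, and 20 falls did not (limma, adjusted p = 0.0504 to 0.195). edgeR on the recovered counts called 64 genes (0.288%), 29 higher and 35 lower, and DESeq2 18 (0.0811%). With the replicate number as a block the count was 134 (0.604%), 25 higher and 109 lower, the 39 among them. The labels do not say that these numbers pair the libraries. With Xist as a covariate 20 genes were called (0.0901%), 17 of the 39 among them. With the 6 resting libraries of the cohort in the fit, 1 gene was called (0.00451%), Acly, and limma without its mean-variance trend and robust steps called 0 (Acly at an adjusted p of 0.0808). Calls also rested on single libraries. Acly, Hmgcs1, Thy1, Bri3bp, D330045A20Rik and Trmt112-ps1 were called without any 1 library. Without WT 1, these 6, Gusb and Igsf8 were called, and the other 31 were not (limma, adjusted p = 0.0519 to 0.415).

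**Figure D1:**
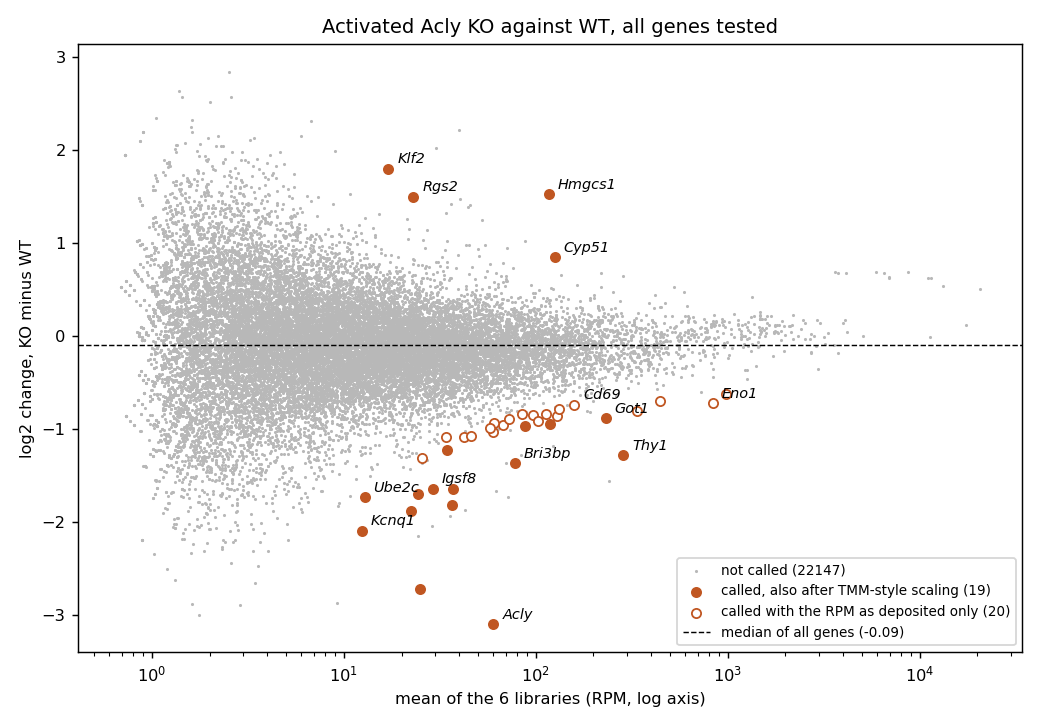
Each point is a gene, with its mean over the 6 activated libraries (RPM, log axis) on the x axis and the log2 difference of KO minus WT on the y axis; orange points are called by limma, filled where they were also called after TMM-style scaling (19) and open where they were not (20). The dashed line marks the median of all genes, −0.09, and no called gene lies under a mean of 10 RPM.

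Genes of cholesterol synthesis were higher in KO cells along most of the pathway. Of 22 genes tested in both arms, 18 had a positive log2 difference, and in 14 (63.6%, against 4.28% of all genes) every KO library lay above every WT library. The mevalonate arm turns acetyl-CoA into isoprenoid units, and the sterol arm folds squalene into lanosterol and trims it to cholesterol. When membranes hold little cholesterol, SREBP transcription factors move to the nucleus and bind sterol regulatory elements of these genes, often beside CCAAT boxes bound by NF-Y. This list was already known to stand higher in these data and is described here gene by gene. Medians were 0.66 for the mevalonate arm (9 genes, 1 called) and 0.65 for the sterol arm (13 genes, 1 called), against −0.09 for all genes, and 0.77 and 0.76 against 0.01 after TMM-style scaling.

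The promoters of both called genes and of Idi1, the next enzyme of the mevalonate arm after Hmgcs1 by size of the difference, show what letters of these elements lie there. The 250 bases before the start are given 5′ to 3′ from RefSeq on GRCm38.p6, for Hmgcs1 (chr13:119690101-119690350, plus strand), Cyp51 (chr5:4104698-4104947, minus strand) and Idi1 (chr13:8885356-8885605, plus strand). Capitals mark matches, on either strand, of TCACNCCAC, a form of the sterol regulatory element, and of CCAAT, which reads ATTGG on the other strand.
Hmgcs1: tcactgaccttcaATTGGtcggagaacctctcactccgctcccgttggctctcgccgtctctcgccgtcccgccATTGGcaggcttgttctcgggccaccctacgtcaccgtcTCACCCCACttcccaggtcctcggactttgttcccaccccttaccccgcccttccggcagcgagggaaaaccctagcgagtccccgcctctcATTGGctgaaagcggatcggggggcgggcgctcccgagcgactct
Cyp51: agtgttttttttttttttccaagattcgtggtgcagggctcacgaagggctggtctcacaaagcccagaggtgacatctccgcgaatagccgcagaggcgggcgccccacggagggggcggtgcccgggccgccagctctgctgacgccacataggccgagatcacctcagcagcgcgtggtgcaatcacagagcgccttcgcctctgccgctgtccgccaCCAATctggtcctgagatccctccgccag
Idi1: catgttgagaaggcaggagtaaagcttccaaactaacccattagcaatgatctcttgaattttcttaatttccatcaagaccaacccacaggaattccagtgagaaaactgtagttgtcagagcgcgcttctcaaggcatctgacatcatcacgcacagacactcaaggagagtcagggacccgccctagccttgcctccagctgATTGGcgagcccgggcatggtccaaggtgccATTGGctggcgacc
The first motif occurred in 408 of 32841 windows of 300 bases (250 before and 50 after a start; 1.24%), and within the 2 arms only in Hmgcs1, as TCACCCCAC. CCAAT occurred in a window of 11095 of 27018 genes (41.1%), of 5261 of 12312 genes tested (42.7%), and of 6 of 7 mevalonate and 10 of 10 sterol genes that had a window; over windows it was 37.4% of all, 75% of the mevalonate and 83.3% of the sterol ones. The mevalonate gene whose window lacked CCAAT was Acat2, and that window, not shown here, held neither motif. The motifs do not overlap each other in the windows shown. A match is a string of letters and not a measured binding site.

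Hmgcs1 (ENSMUSG00000093930, chromosome 13, 119690379 to 119708260) makes HMG-CoA, the precursor of mevalonate. It stood at 44.1, 71.0 and 64.8 RPM in WT against 226, 135 and 162 RPM in KO. Every KO library lay well above the highest WT library, and KO 1 stood highest. Hmgcs1 rose by 1.53 ± 0.20 on the log2 scale (limma, adjusted p = 4.98e-05). Upstream of it, Acat2, which joins 2 acetyl-CoA into acetoacetyl-CoA, stood at 103, 105 and 105 RPM in WT against 175, 168 and 154 RPM in KO. The groups were apart by far more than their spread, but Acat2 did not pass (0.66 ± 0.17, limma, adjusted p = 0.0752), and passed with the replicate block (limma, adjusted p = 0.0276) and by edgeR (adjusted p = 0.0206). Idi1, which isomerizes isopentenyl diphosphate, was at 37.2 to 65.3 RPM in WT and 65.7 to 98.2 RPM in KO (0.78 ± 0.21, limma, adjusted p = 0.128). Idi1 passed by edgeR (adjusted p = 0.033) and with the block (limma, adjusted p = 0.0357), while Fdps, which makes farnesyl diphosphate, passed neither (0.66 ± 0.27). Idi1 did not pass after TMM-style scaling (limma, adjusted p = 0.0888) or by DESeq2 (adjusted p = 0.216).

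In the sterol arm, Cyp51 (ENSMUSG00000001467, chromosome 5, 4081145 to 4104746), which demethylates lanosterol, held 89.7, 99.3 and 80.1 RPM in WT and 175, 159 and 151 RPM in KO. KO values lay well above the WT range, and Cyp51 rose by 0.85 ± 0.17 (limma, adjusted p = 0.0147). Its call ended without WT 1, KO 1 or KO 2 (limma, adjusted p = 0.103, 0.157 and 0.0874). Its last exon overlaps that of Akap9 on the opposite strand, which was also higher in every KO library (0.74 ± 0.26, not called), and whether the authors counted by strand is not given in the sources used here. Lss, which closes the rings to form lanosterol, stood at 26, 45.3 and 18.5 RPM in WT and 62.5, 57.7 and 48.4 RPM in KO (0.99 ± 0.26). Lss passed with the block (limma, adjusted p = 0.0299) and by edgeR (adjusted p = 0.0333), and not in the fit without the block (limma, adjusted p = 0.108). Nor did Lss pass after TMM-style scaling (limma, adjusted p = 0.075) or by DESeq2 (adjusted p = 0.25). Msmo1, which acts later, also had groups that did not overlap and did not pass (0.65 ± 0.19). Of the 13 genes of the arm, 3 were negative. Among these only Lbr, a sterol reductase that also anchors chromatin to the nuclear envelope, was lower in each KO library (−0.71 ± 0.28, limma, adjusted p = 0.45).

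**Figure D2:**
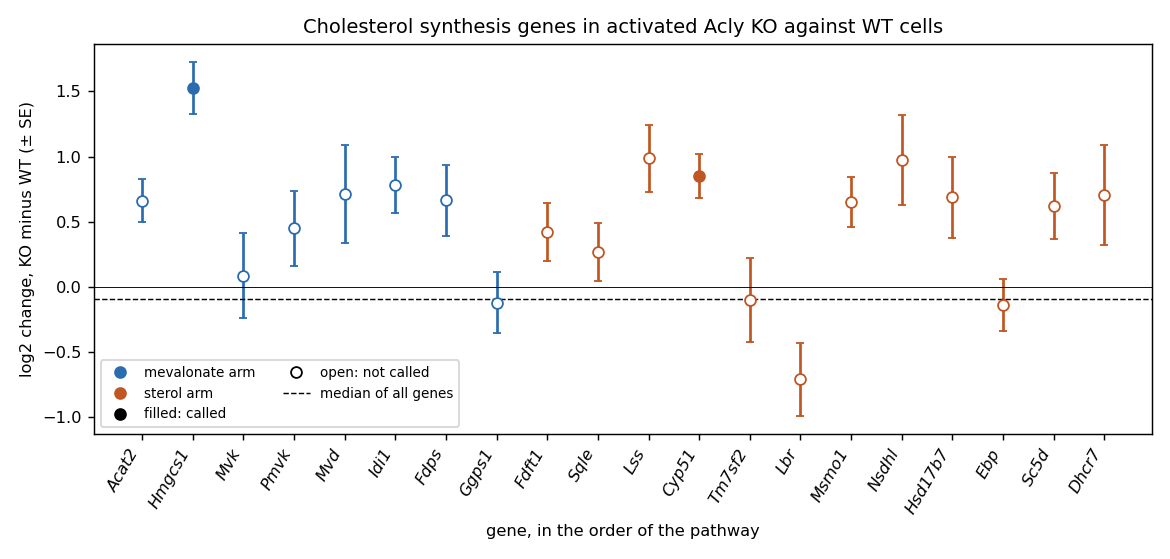
Log2 difference of KO minus WT (± standard error) for 20 of the 22 cholesterol synthesis genes tested, in the order of the pathway, blue for the mevalonate arm and orange for the sterol arm; filled points are called by limma. Hmgcs1 and Cyp51 are called, 16 of the 20 shown lie above 0, and Lbr lies lowest at −0.71.

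Genes that sense, import and export sterols did not move as a group. Of 17 tested, 10 were positive, 0 were called, 0 had KO wholly higher and 2 had KO wholly lower (median 0.05). Over all genes tested, 4.28% had KO wholly higher and 9.49% wholly lower. Insig1, which holds SREBP back in the endoplasmic reticulum and is itself an SREBP target, stood at 233, 211 and 246 RPM in WT and 294, 216 and 358 RPM in KO, with overlapping groups. Srebf2, which encodes an SREBP, was at 55.0 to 71.8 RPM in WT and 57.9 to 75.7 RPM in KO. The cholesterol-sensing escort Scap (−0.83 ± 0.32) and the oxysterol receptor Nr1h2 (−0.58 ± 0.22) were the 2 with lower KO values throughout, and neither was called.

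Fatty acid synthesis, the other main use of cytosolic acetyl-CoA, showed no common direction. Of 18 genes, 9 were positive and 0 were called (median −0.02). Fasn, the fatty acid synthase, stood at 30.05 to 61.3 RPM in WT and 35.4 to 54.1 RPM in KO. Acaca, which makes its malonyl-CoA, was at 26 to 29.3 and 23.0 to 31.9 RPM. The desaturase gene Scd2 had higher values in every KO library (49.1, 51.7 and 42.5 against 88.0, 74.8 and 67.8 RPM; 0.68 ± 0.20, limma, adjusted p = 0.191). The elongase gene Elovl1 (−0.87 ± 0.26) and the fatty acyl-CoA ligase gene Acsl4 (−0.59 ± 0.19) had lower values in every KO library without passing. Among 16 genes of acetyl-CoA supply, Acly was the only call, and 14 were negative (median −0.26). Acss2, which makes cytosolic acetyl-CoA from acetate, stood at 10.6 to 12 RPM in WT and 7.49 to 12.9 RPM in KO.

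Klf2 (ENSMUSG00000055148, chromosome 8, 72319033 to 72321656), a transcription factor of quiescent T cells that drives genes of lymphoid homing, was higher in KO cells. Its values were 4.99, 11.9 and 6.17 RPM in WT and 31.1, 24.8 and 23.6 RPM in KO; the lowest KO value lay well above the highest WT value. Klf2 rose by 1.80 ± 0.35 (limma, adjusted p = 0.0108). The call ended without WT 1, KO 1 or KO 2 (limma, adjusted p = 0.115, 0.159 and 0.0602). Rgs2 (ENSMUSG00000026360, chromosome 1, 143999338 to 144004161), which ends signalling by G protein-coupled receptors, held 8.98, 11.9 and 15.0 RPM in WT and 35.7, 35.4 and 31.1 RPM in KO. Rgs2 rose by 1.50 ± 0.29 (limma, adjusted p = 0.0113), with a difference about as large as that of Hmgcs1, and lost its call without the same 3 libraries (limma, adjusted p = 0.115, 0.132 and 0.0896) and with Xist as a covariate (limma, adjusted p = 0.0761).

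Other genes of quiescence and homing leaned the same way. Of 21 tested, 14 were positive and 1, Klf2, was called (median 0.29). Groups were apart upward in 7, against 4.28% of all genes, and downward in 1, against 9.49%. Klf6, a related factor, stood at 30.01, 20.6 and 17.6 RPM in WT and 49.5, 37.2 and 51.6 RPM in KO (1.02 ± 0.25, limma, adjusted p = 0.0684). Slfn2, which keeps T cells quiescent, was at 150, 207 and 148 RPM in WT and 298, 310 and 208 RPM in KO, where KO 3 barely cleared the highest WT library (0.68 ± 0.17, limma, adjusted p = 0.0772). The growth inhibitor Btg1 followed with 0.78 ± 0.21 (limma, adjusted p = 0.113). All 3 passed with the block (limma, adjusted p = 0.0299, 0.0121 and 0.0435) and by edgeR (adjusted p = 0.0149, 0.0149 and 0.0227). None of the 3 passed by DESeq2 (adjusted p = 0.11, 0.0826 and 0.0962). After TMM-style scaling Klf6 passed (limma, adjusted p = 0.0343), and Slfn2 and Btg1 did not (limma, adjusted p = 0.0681 and 0.0604). The exit receptor gene S1pr1 and the chemokine receptor gene Ccr7, both linked to Klf2 or naive cells, had overlapping groups (0.40 ± 0.43 and 0.33 ± 0.18).

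**Figure D3:**
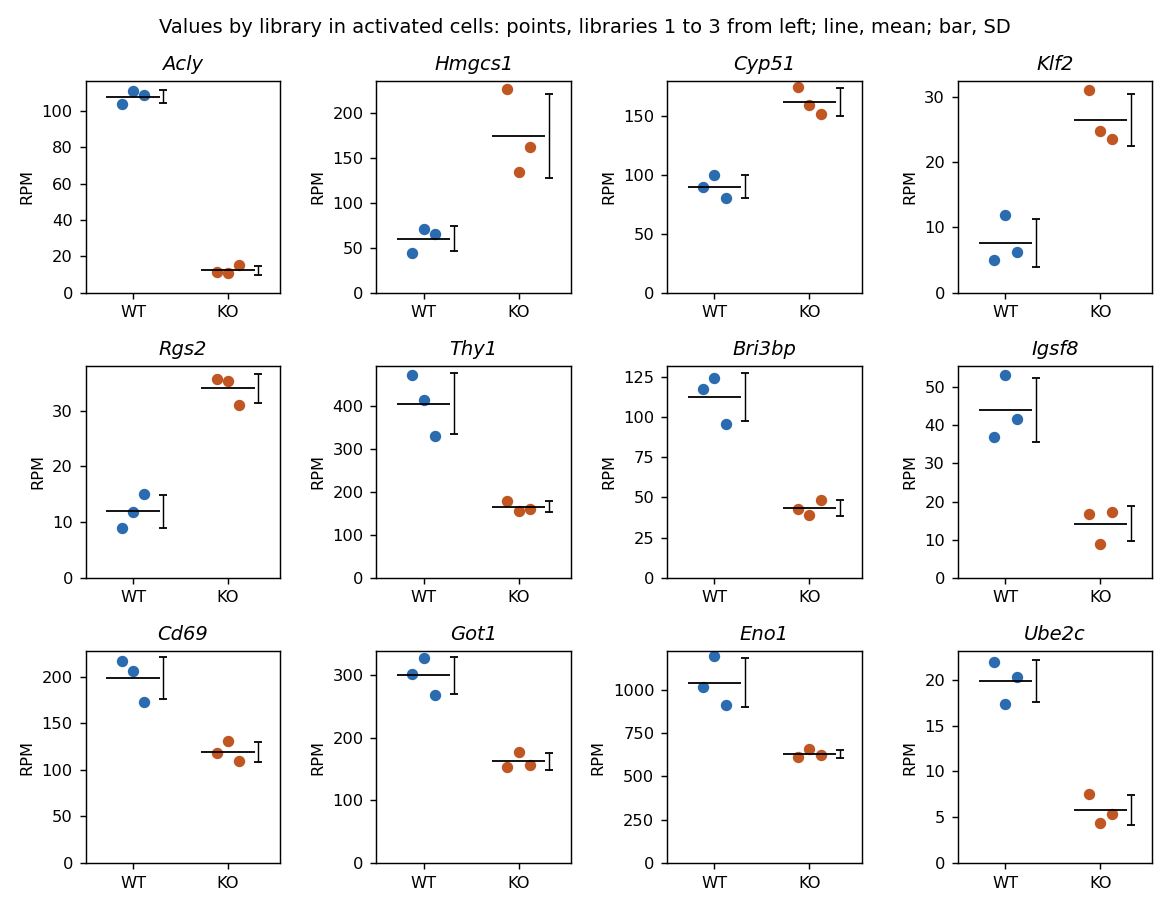
RPM in each activated library (points, libraries 1 to 3 from left) for 12 called genes, with the mean (line) and the standard deviation (bar) of 3 libraries per group and axes that start at 0. In each panel the WT and KO points do not overlap; Hmgcs1, Cyp51, Klf2 and Rgs2 are higher and the other 8 lower in KO.

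Among T cell surface genes Thy1 had the clearest difference. Thy1 (ENSMUSG00000032011, chromosome 9, 44043384 to 44048579), which encodes the surface glycoprotein CD90, held 472, 415 and 331 RPM in WT and 179, 157 and 161 RPM in KO. Thy1 fell by 1.28 ± 0.16 (limma, adjusted p = 5.52e-06), in every fit that left out 1 library. Among 18 genes of the T cell receptor complex and T cell identity, 16 were negative (median −0.39, and −0.28 after TMM-style scaling). In 11 of the 18, all KO values lay below all WT values, and Thy1 was the only call. This was so for 9.49% of all genes, and for 282 of 1486 genes with a mean of 100 RPM or more. Cd4 stood at 259, 298 and 242 RPM in WT and 162, 180 and 202 RPM in KO (−0.55 ± 0.16, limma, adjusted p = 0.157). The adaptor gene Lat had 361, 444 and 401 RPM in WT and 279, 299 and 273 RPM in KO (−0.50 ± 0.15, limma, adjusted p = 0.192). Cd4 and Lat passed with the block (limma, adjusted p = 0.0467 and 0.0375), and neither passed by edgeR (adjusted p = 0.446 and 0.576). The chains of the receptor were not uniformly lower: Trac was at 336 to 436 RPM in WT and 296 to 322 RPM in KO, whereas Trbc1 was at 294 to 336 RPM and 308 to 391 RPM. In bulk RNA, fewer cells of a type and less RNA per cell cannot be told apart.

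Markers of activation split. Of 20 activation surface markers and costimulatory receptors, 10 were positive and 2 were called, both lower (median 0.02). Cd69, an early marker that retains cells in tissue, held 217, 207 and 173 RPM in WT and 118, 131 and 109 RPM in KO, and fell by 0.73 ± 0.16 (limma, adjusted p = 0.0404). Ly6a, which encodes the activation-induced surface protein Sca-1, held 527, 596 and 522 RPM in WT and 396, 311 and 312 RPM in KO, and fell by 0.70 ± 0.15 (limma, adjusted p = 0.0183). Both calls ended after TMM-style scaling (limma, adjusted p = 0.187 and 0.135), and Cd69 was not called without any of 5 libraries, all but WT 3 (limma, adjusted p = 0.0928 to 0.346). Sh2d2a, an adaptor that binds the kinase Lck, fell by 0.78 ± 0.17 (limma, adjusted p = 0.0339), also a call that ended after that scaling (adjusted p = 0.128). Against these, the inhibitory ligand gene Cd200 stood at 93.6 to 106 RPM in WT and 133 to 153 RPM in KO (0.52 ± 0.17, not called).

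Activation-induced transcription factors had 8 of 23 positive and 0 called (median −0.06). Of the genes of the IL-2 receptor family and its feedback, 12 of 19 were positive with 0 called, and Socs2, a STAT5 target that restrains cytokine signalling, had 46.1 to 60.5 RPM in WT and 65.7 to 95.8 RPM in KO (0.58 ± 0.20). Cytokines, chemokines and granzymes had 6 of 18 positive and 0 called. Ifng was at 46.9 to 47.1 RPM in WT and 32.8 to 35.4 RPM in KO, groups that were tight and apart (−0.45 ± 0.22, limma, adjusted p = 0.614). Of 15 helper lineage factors, 7 were positive and 0 were called. Eomes, a factor of effector and memory cells, held 18, 8.69 and 10.6 RPM in WT and 32.6, 37.2 and 20.4 RPM in KO (1.26 ± 0.32, limma, adjusted p = 0.0752). Eomes passed after TMM-style scaling (limma, adjusted p = 0.0496), with the block (limma, adjusted p = 0.0343) and by edgeR (adjusted p = 0.0127). Eomes is also 1 of 10 genes on a list of CD8 and NK cell markers, whose sum with it was 36.3 to 50.9 RPM in WT and 60.6 to 76.9 RPM in KO (7 tested, 4 positive, 0 called), and the part of such cells was not tested. Tbx21, the related factor of type 1 helper cells, lay on the other side, at 44.1 to 54.1 RPM in WT and 27.4 to 34.3 RPM in KO (−0.58 ± 0.23, not called). Of 28 interferon-induced genes, 19 were positive and 0 were called (median 0.09), with Isg15 at 8.98, 5.53 and 2.64 RPM in WT and 18.2, 16.8 and 12.8 RPM in KO (1.53 ± 0.41, limma, adjusted p = 0.124). Cd74, the invariant chain of MHC class II, was at 10.6 to 24.0 RPM in WT and 26.8 to 43.4 RPM in KO (1.14 ± 0.29) and passed by edgeR (adjusted p = 0.0149). It stands beside B cell markers whose sum reached 20.3 RPM in KO 3, and their part in it was not tested.

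Glycolysis genes were mostly lower, with 1 call. Eno1, the enolase of glycolysis (ENSMUSG00000063524, chromosome 4, 150236721 to 150248879), held 1017, 1192 and 912 RPM in WT and 609, 657 and 623 RPM in KO. Eno1 fell by 0.72 ± 0.14 (limma, adjusted p = 0.00895). Eno1b, a retrotransposed near copy of Eno1 on chromosome 18, fell by 0.62 ± 0.13 (limma, adjusted p = 0.0174). Reads of 75 bp may not tell these copies apart, so they are not separate evidence, and both calls ended after TMM-style scaling (limma, adjusted p = 0.0861 and 0.195). Of 19 glycolysis genes, 18 were negative (median −0.32, and −0.21 after that scaling). In 10, KO lay wholly below WT, and Eno1 was the only call. This was so for 9.49% of all genes, and for 282 of 1486 genes with a mean of 100 RPM or more. Slc16a3, which exports lactate, stood at 19.0, 19.0 and 12.3 RPM in WT and 3.02, 6.17 and 5.35 RPM in KO (−1.72 ± 0.40, limma, adjusted p = 0.0568). Slc16a3 passed with the block (limma, adjusted p = 0.0277) and by edgeR (adjusted p = 0.0414), and not after TMM-style scaling (limma, adjusted p = 0.0798). Pkm, the pyruvate kinase gene, was at 1329 to 1666 RPM in WT and 1007 to 1145 RPM in KO (−0.46 ± 0.13, limma, adjusted p = 0.148, and 0.0134 with the block), and did not pass after TMM-style scaling (limma, adjusted p = 0.585) or by edgeR (adjusted p = 0.629). The hexokinase gene Hk2 was at 28 to 31.8 RPM in WT and 8.82 to 22.5 RPM in KO (−0.95 ± 0.30, not called).

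The called enzymes that follow are on no list and are given one by one. Got1, the cytosolic aspartate aminotransferase that uses oxaloacetate, the other product of ATP citrate lyase, held 302, 329 and 269 RPM in WT and 153, 178 and 157 RPM in KO. Got1 fell by 0.88 ± 0.16 (limma, adjusted p = 0.00377), also after TMM-style scaling (limma, adjusted p = 0.0343). Isyna1, which makes inositol phosphate from glucose phosphate, held 155, 165 and 150 RPM in WT and 90.4, 82.9 and 71.1 RPM in KO, and fell by 0.95 ± 0.17 (limma, adjusted p = 0.0062). Gusb, a lysosomal glucuronidase, fell by 0.96 ± 0.19 (limma, adjusted p = 0.012). Got1 and Isyna1 lost their calls without WT 1 (limma, adjusted p = 0.0544 and 0.069) or WT 2 (limma, adjusted p = 0.073 and 0.0758), and Got1 also without KO 1 (limma, adjusted p = 0.0619). Gusb lost its call without WT 2, KO 1 or KO 2 (limma, adjusted p = 0.233, 0.113 and 0.0692). The sugar enzymes Galk1, which phosphorylates galactose, and Gnpda1, which returns glucosamine phosphate to glycolysis, fell by 1.02 ± 0.21 and 1.30 ± 0.29 (limma, adjusted p = 0.0147 and 0.0339). Adi1 of methionine salvage fell by 0.96 ± 0.20 (limma, adjusted p = 0.0173), the phospholipase gene Pla2g12a by 0.93 ± 0.21 (limma, adjusted p = 0.0339) and Mboat7, which acylates lysophosphatidylinositol, by 0.88 ± 0.19 (limma, adjusted p = 0.0335). These 5 calls ended after TMM-style scaling (limma, adjusted p = 0.0504 to 0.107).

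Metabolic lists without a call leaned lower as well, most of them close to the shift of all genes. Serine and one-carbon genes had 2 of 13 positive (median −0.31) and nucleotide synthesis 4 of 22 (median −0.17). Rrm2, the ribonucleotide reductase subunit that makes deoxynucleotides, stood at 799, 1013 and 822 RPM in WT and 631, 541 and 567 RPM in KO (−0.59 ± 0.14, limma, adjusted p = 0.0544, and 0.0054 with the block), and did not pass after TMM-style scaling (limma, adjusted p = 0.303) or by edgeR (adjusted p = 0.277). Phgdh, which opens serine synthesis, was at 47.8 to 68.6 RPM in WT and 34.2 to 37.2 RPM in KO (−0.68 ± 0.22, not called). The TCA cycle (6 of 19 positive, median −0.13), fatty acid oxidation (7 of 17, median −0.10), nuclear genes of the respiratory chain (13 of 45, median −0.10) and the mitochondrial genome (4 of 13, median −0.12) lay near the median of all genes, with 0 calls in each. Amino acid transporters had 1 of 10 positive (median −0.20). Among ATF4 targets, 6 of 15 were positive, and Atf5, a stress-responsive factor, stood at 10.3 to 19.0 RPM in WT and 25.0 to 32.2 RPM in KO (1.05 ± 0.29, limma, adjusted p = 0.148).

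The lists of protein synthesis held 1 call. Cytosolic ribosomal proteins had 58 of 78 positive and 0 called (median 0.07, and 0.17 with 75 positive after TMM-style scaling). Ribosome biogenesis factors had 5 of 34 positive and 1 called (median −0.29, and −0.18 after that scaling). In 14 of these factors KO lay wholly below WT, against 9.49% of all genes and 282 of 1486 genes with a mean of 100 RPM or more. The called gene, Wdr12, which helps mature the large subunit, held 201, 163 and 136 RPM in WT and 87.3, 80.2 and 106 RPM in KO, and fell by 0.86 ± 0.18 (limma, adjusted p = 0.0173). Of calls outside the lists, Imp4, which processes the RNA of the small subunit, fell by 0.85 ± 0.19 (limma, adjusted p = 0.0339). Neither was called after TMM-style scaling (limma, adjusted p = 0.0744 and 0.111). In mitochondria, Tufm, the translation elongation factor, held 56.2, 49.3 and 40.7 RPM in WT and 22.7, 17.7 and 21.4 RPM in KO and fell by 1.22 ± 0.24 (limma, adjusted p = 0.0147), a call that held after that scaling (limma, adjusted p = 0.0343). Mrpl34, a protein of the mitochondrial ribosome, fell by 0.83 ± 0.17 (limma, adjusted p = 0.0173) and did not pass after it (adjusted p = 0.0888). Aminoacyl-tRNA synthetases (4 of 20 positive, median −0.23), initiation factors (3 of 18, median −0.15), proteasome subunits (5 of 36, median −0.22), the chaperonin CCT (0 of 8, median −0.19) and chaperones of the endoplasmic reticulum (3 of 18, median −0.33) held 0 calls.

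In the late cell cycle 1 gene fell and many leaned the same way. Of 39 genes of G2 and mitosis, 33 were negative (median −0.47, and −0.36 after TMM-style scaling). In 14, KO lay wholly below WT, and 1 was called. KO lay wholly below WT in 9.49% of all genes, and in 615 of 3306 genes with a mean of 30 to 100 RPM. That call was Ube2c, the ubiquitin-conjugating enzyme of the anaphase-promoting complex (ENSMUSG00000001403, chromosome 2, 164769898 to 164778822). Ube2c held 22.0, 17.4 and 20.3 RPM in WT and 7.56, 4.41 and 5.35 RPM in KO and fell by 1.73 ± 0.37 (limma, adjusted p = 0.0219). It was called after TMM-style scaling, and without KO 3, and not without any other library (limma, adjusted p = 0.0646 to 0.232). Its annotated exons overlap Tnnc2 on the opposite strand. The mitotic kinase gene Plk1 stood at 12, 18.2 and 14.1 RPM in WT and 4.53, 5.29 and 2.14 RPM in KO (−1.82 ± 0.43, limma, adjusted p = 0.0584). The topoisomerase gene Top2a was at 277 to 350 RPM in WT and 163 to 238 RPM in KO (−0.64 ± 0.16, limma, adjusted p = 0.074), and Cdk1, the kinase of mitotic entry, had −0.59 ± 0.16 (limma, adjusted p = 0.127). All 3 passed with the block (limma, adjusted p = 0.0276, 0.0111 and 0.0391), and none passed after TMM-style scaling (limma, adjusted p = 0.0855, 0.33 and 0.445) or by edgeR (adjusted p = 0.0549, 0.277 and 0.39). DNA replication and S phase had 11 of 37 positive and 0 called (median −0.13), and G1 cyclins, kinases and inhibitors 6 of 18 with 0 called (median −0.26). The difference between these lists was not tested.

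Of 47 replication-dependent histones, 36 were negative and 0 were called, and 16 had KO wholly lower, against 9.49% of all genes. Their median was the lowest of the 42 lists, −0.75 (−0.65 after TMM-style scaling). Most lie at low levels: 33 of the 47 had a mean under 10 RPM, and the median over the genes was 4.26 RPM. The summed list stood at 476 to 973 RPM in WT and 355 to 472 RPM in KO. Hist1h2ad was at 43.1, 36.5 and 21.2 RPM in WT and 15.1, 8.82 and 17.1 RPM in KO (−1.26 ± 0.31, limma, adjusted p = 0.0684), and passed by edgeR (adjusted p = 0.0433) and with the block (limma, adjusted p = 0.0386). Clustered histone genes are near copies of one another, and the authors' counting could split their reads. Enzymes that write and remove histone acetylation did not stand out. Of 13 acetyltransferases 4, and of 10 deacetylases 3, were positive, with 0 calls (medians −0.16 and −0.12). Hat1, which acetylates new histone H4, was at 151 to 190 RPM in WT and 104 to 128 RPM in KO (−0.56 ± 0.17, limma, adjusted p = 0.194).

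**Figure D4:**
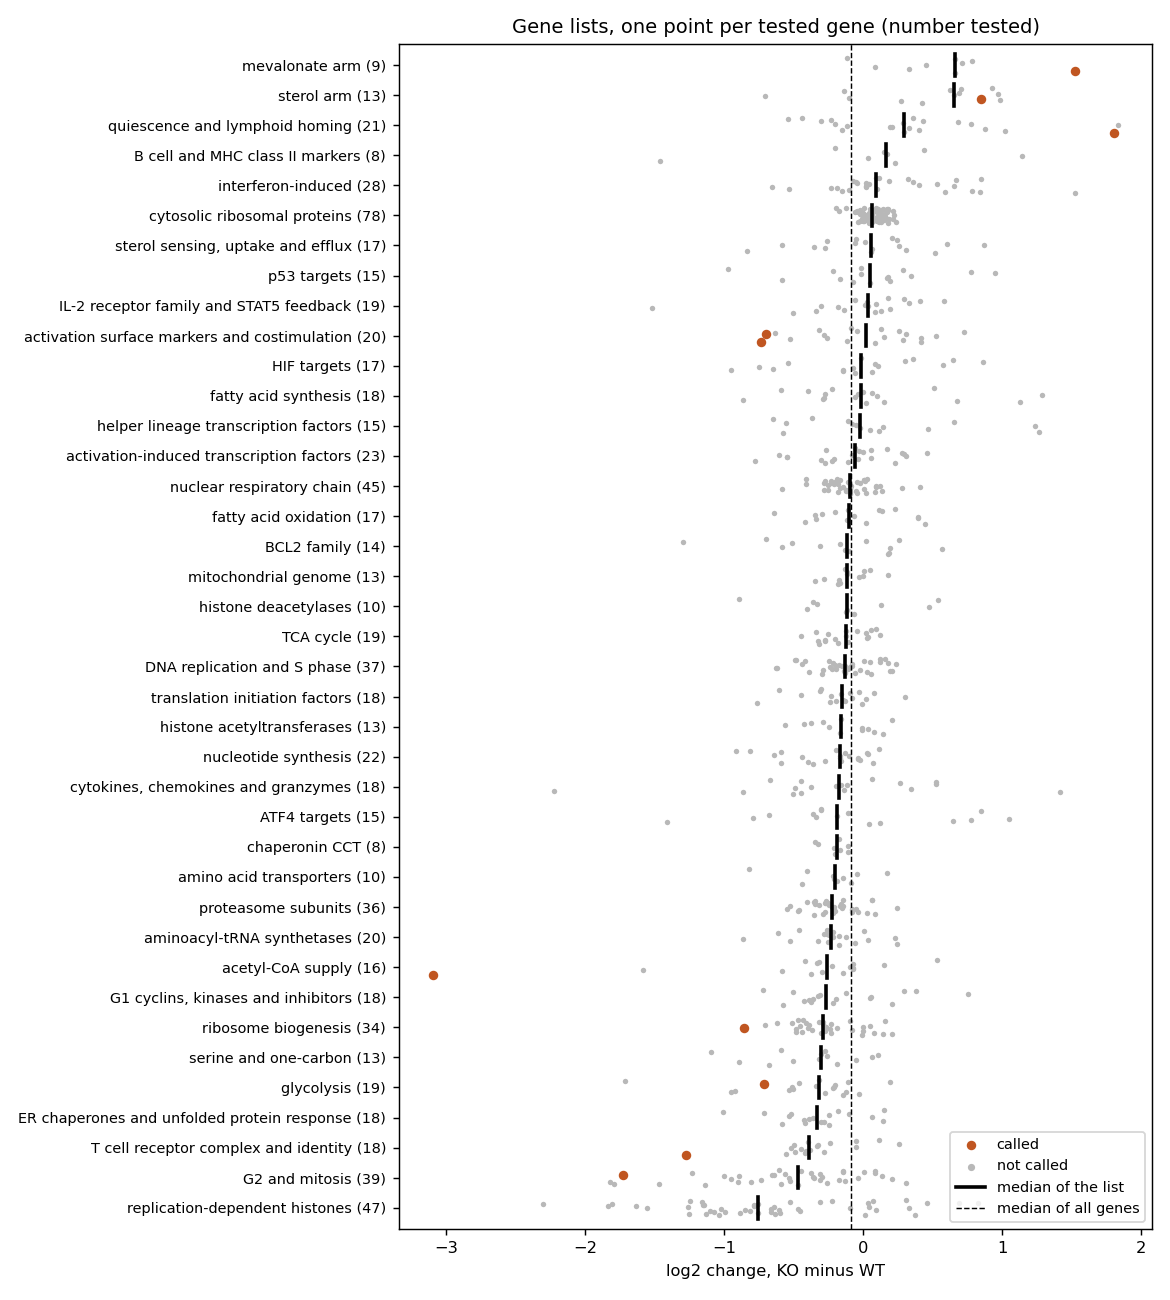
Log2 difference of KO minus WT (x axis) for each tested gene of the lists with at least 8 tested genes (rows, number tested in brackets), orange where called by limma; black bars mark list medians and the dashed line the median of all genes. The mevalonate and sterol arms have the highest medians, 0.66 and 0.65, and replication-dependent histones the lowest, −0.75.

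Some of the clearest falls belong to none of the lists. Bri3bp, whose product binds the membrane protein BRI3, held 117, 124 and 95.4 RPM in WT and 42.6, 39 and 48.4 RPM in KO. Bri3bp fell by 1.36 ± 0.19 (limma, adjusted p = 9.69e-05). D330045A20Rik on the X chromosome held 76.5, 50.9 and 44.3 RPM in WT and 15.1, 11.5 and 21.4 RPM in KO, and fell by 1.81 ± 0.27 (limma, adjusted p = 0.00017). Igsf8, an immunoglobulin superfamily partner of tetraspanins, held 37.0, 53.3 and 41.6 RPM in WT and 16.7, 8.82 and 17.1 RPM in KO, and fell by 1.64 ± 0.28 (limma, adjusted p = 0.00269), a call that ended only without WT 2 (limma, adjusted p = 0.0957). Their groups were well apart and all 3 were called after TMM-style scaling and by edgeR. The pseudogene Trmt112-ps1 fell by 1.88 ± 0.30 (limma, adjusted p = 0.000852), while its parent gene Trmt112 stood at 165 to 178 RPM in WT and 168 to 221 RPM in KO (0.24 ± 0.16, not called). Reads of a pseudogene and its parent may be hard to tell apart, so this fall is uncertain.

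Further falls rest on less even values. Arhgap26 (ENSMUSG00000036452, 1 of 2 identifiers with this symbol that share exons), which encodes a GTPase-activating protein, held 87.6, 26.1 and 20.3 RPM in WT and 7.56, 5.29 and 3.21 RPM in KO. WT 1 was several times the other WT libraries, and although it fell by 2.71 ± 0.45 (limma, adjusted p = 0.012), edgeR did not call it (adjusted p = 0.628). Kcnq1, a potassium channel gene, held 25.0, 26.1 and 10.6 RPM in WT and 3.02, 3.53 and 6.42 RPM in KO and fell by 2.09 ± 0.42 (limma, adjusted p = 0.0147). Its body holds the antisense RNA Kcnq1ot1, at 1286 to 1680 RPM in WT and 1249 to 1689 RPM in KO, and without strand their reads cannot be told apart. The processed pseudogene Gm19085 (−1.69 ± 0.34) and the noncoding 9330159M07Rik (−1.64 ± 0.30) fell too (limma, adjusted p = 0.0172 and 0.0147). Cacybp, which links ubiquitin ligases to their targets, held 366 to 466 RPM in WT and 226 to 262 RPM in KO and fell by 0.80 ± 0.15 (limma, adjusted p = 0.00895). The remaining falls were between 0.83 and 1.09 on the log2 scale: Ctsz, a lysosomal cathepsin, Selenoh, a nuclear selenoprotein, Ccdc115, an assembly factor of the proton pump of acid organelles, Serpinb6b, a protease inhibitor, Tpm4, a tropomyosin, and Ubald1. The calls of these 6 and of Cacybp ended after TMM-style scaling (limma, adjusted p = 0.0514 to 0.128).

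A group of 12 gene models that carry satellite repeats took a large and uneven share of the libraries. They lie at chromosome 2 (Gm10800 and Gm10801), chromosome 9 (9 models) and chromosome 14 (Gm21738), are near copies of one another, and were chosen after their values were seen. Together they held 7.69%, 6.59% and 10.1% of all RPM in WT 1 to 3 and 12.2%, 15.4% and 9.75% in KO 1 to 3, so that KO 3 lay below WT 3. Their median log2 difference was 0.66, and limma called 0 of them. edgeR called Gm21738, Gm10715, Gm10801, Gm11168 and Gm10719 higher (adjusted p = 0.0242 to 0.0415), so its higher calls include these near copies. Gm10800, the model with the largest rise in mean RPM, stood at 15541, 15483 and 19564 RPM in WT and 22320, 30022 and 20262 RPM in KO (0.51 ± 0.13, limma, adjusted p = 0.116). Its counts, 4093 in KO 1 and 4095 in KO 2, are near or at the ceiling of 4095 that the identifiers allow, so these values and the shares above are imprecise. Protein-coding genes outside the receptor families of smell, the mitochondrial genome and these models held 60.4% to 65.7% of RPM in WT and 57.2% to 60.5% in KO. Counted with mitochondrial genes and these models, the share was 72.3% to 74.8% in WT and 70.9% to 74.7% in KO, so the groups overlapped. With these models left out of the total, the median of all genes was −0.02 and 32 genes were called (0.144%), 8 higher and 24 lower, of which 28 were among the 39.

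**Figure D5:**
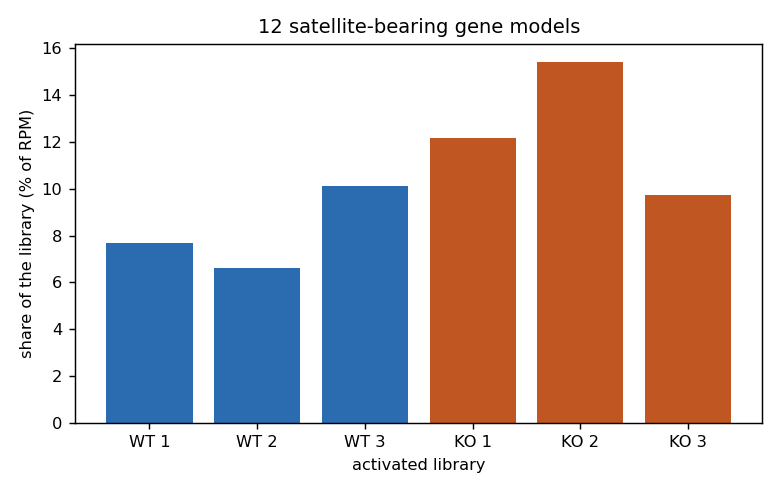
Share of RPM (y axis, percent, from 0) held by 12 satellite-bearing gene models in each activated library, blue for WT and orange for KO. KO 1 and KO 2 are the highest at 12.2% and 15.4%, and KO 3 at 9.75% lies below WT 3 at 10.1%.

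At rest most called genes did not have groups apart in the same direction. Of the 4 that rose, 1 had a positive difference between resting KO and WT cells, against 52.2% of all genes. Resting groups were apart in that direction for 0 of the 4 (3.38% of all genes). Of the 35 that fell, 16 were negative at rest (47.8% of all genes) and 3 had resting groups apart (3.48% of all genes). limma called 0 genes at rest and 0 genes for the difference between the activated and the resting effect, which shares these activated libraries. The 3 were Pla2g12a, Ly6a and Adi1, with resting differences of −1.12 ± 0.44, −0.92 ± 0.37 and −0.77 ± 0.40, none called. Cacybp was at −0.77 ± 0.39 and Acly, under 10 RPM in every resting library, at −1.02 ± 0.62. For Hmgcs1 the resting log2 difference was −0.15 ± 0.44, for Cyp51 −0.15 ± 0.60, for Klf2 0.00 ± 0.38 and for Thy1 −0.05 ± 0.26. Cyp51 stood at only 2.82 to 7.45 RPM in the resting libraries. The difference between activated and resting cells was thus not shown for any single gene.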

How the data were processed

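RNA was measured in 24 libraries, and the 6 activated libraries of the Acly cohort entered the comparison. The authors deposited a single table of RPM, scaled to a sum of 1000000 per library, for 46981 gene identifiers. GRCm38 and mm10 are the builds in the submitters' processing notes. No aligner, counter, strand setting or annotation is given in the sources used here, while the labels' protocols name a stranded kit. Once the collision correction that 4096 possible 6-base identifiers imply was undone, there were whole counts behind 100.0% of the values above 0, within a tolerance of 0.01. The labelled protocol names no such identifiers. Symbols and positions came from GENCODE M21 on GRCm38, which matched 46206 identifiers, and promoters from RefSeq on GRCm38.p6.

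limma 3.58.1 (R 4.3.3), with its trend and robust options, was fitted to log2(RPM + 0.5) of the 6 libraries, with Benjamini-Hochberg adjustment over the 22186 genes kept, a threshold of 0.05 and no minimum fold. Log2 differences on this scale understate those of low genes. The 6-library fit was preferred to a fit with the 6 resting libraries, with the counts of calls of both known; the median standard deviation over genes of at least 20 RPM was 0.244 (log2) in activated and 0.447 in resting groups. Alternatives were count tests (edgeR 4.0.16, DESeq2 1.42.0) on the collision-corrected counts rounded to whole numbers, other pseudocounts, filters, scalings and covariates, the replicate block, and each library left out. The fits were checked on simulated data. Same-numbered KO and WT libraries deviated together from their group means (correlations 0.219, 0.179 and 0.259 for numbers 1 to 3, taken from the labels). For differently numbered libraries the correlations were −0.248 to 0.0841. The labels state no pairing. By Xist and Ddx3y, WT 2 and KO 2 were of unlike type, and libraries numbered 1 and 3 of like type. The replicate block is an alternative that takes the numbers to pair the libraries, which was not tested otherwise.

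The genes, the 42 lists (891 symbols, 889 in the table, 831 tested) and the tests were chosen with earlier results of these data known. Lists are described by counts and medians, with no test. The naming rule took Acly, the 15 largest called rises and falls whose higher group averaged 3 RPM or more (without predicted models and receptor segments), the 8 largest changes of the mean in RPM each way, and up to 4 genes per list with the smallest p. The 15 called genes outside it are named as the rest of the calls. Lbr, Srebf2, Fasn, Acaca, Acss2, S1pr1, Ccr7, Trac, Trbc1, Akap9, Trmt112 and Kcnq1ot1 were chosen after their values were seen. Some genes of the lists enter the counts and medians but are not reported here by name.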

Additional observations from a re-analysis of the deposited data

How the results depend on the processing

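The 39 calls (4 higher, 35 lower) became 67 (8 and 59) with a pseudocount of 1, 91 (17 and 74) with no filter, 23 (10 and 13) with quantile normalization, 27 (11 and 16) with TMM-style scaling, 134 (25 and 109) with the replicate block, 139 (25 and 114) with receptor background as a covariate, 20 (6 and 14) with Xist as a covariate, 64 (29 and 35) by edgeR, 18 (7 and 11) by DESeq2 and 1 (0 and 1) with 12 libraries. Without trend and robust fitting there were 0 (0 and 0), and Acly, at −3.10, had an adjusted p of 0.0808 by limma. Without the satellite-bearing models, an alternative added after seeing the data, 32 were called (8 and 24). With a library left out, 8 to 87 genes were called, 1 to 24 higher and 7 to 66 lower: 8 without WT 1, 17 without WT 2, 74 without WT 3, 14 without KO 1, 13 without KO 2 and 87 without KO 3. The causes were not tested. Shared with the 39 were 39 calls with the block, 29 by edgeR, 19 after TMM-style scaling, 17 after quantile normalization and 14 by DESeq2. The replicate block kept every one of the 39 and added 95.

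Of the 185 genes refitted one by one under the alternatives, 9 uncalled ones turned sign when 1 library was left out. The log2 change ran from −0.669 to 0.0758 for Ep300, −0.149 to 1.74 for Sesn1, −0.60 to 0.102 for Cd22, −1.21 to 0.0715 for Itgam, −0.103 to 1.16 for Fcer1g, −0.325 to 0.00527 for Csf1r, −0.893 to 0.676 for Cd68, −0.474 to 1.17 for Hbb-bt and −0.842 to 1.57 for Hba-a1. Depth limits low genes: 1 count was worth 0.755 to 1.07 RPM, and genes with a mean under 10 RPM made up 0 calls by limma, 6 with the block, 1 after TMM-style scaling and 4 by edgeR.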
